A study of Mus musculus with 4 samples.

Results

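Collagen chains were examined in the frontonasal prominence of the mouse embryo (FNP), from which the nose and snout form. The members were every gene of the expression table whose symbol is Col, a number, a and a number, which gave 42 chains among 33708 autosomal rows. A row of the table holds 1 log2 RPKM value per genotype (reads relative to the exon length of the gene and to the library size, on the log2 scale). Of the 42 chains, 34 had at least 10 reads in at least 1 genotype and were compared. These were 11 of 11 fibrillar chains, 2 of 4 basement membrane chains, 7 of 9 FACIT chains (fibril-associated collagens with interrupted triple helices) and 14 of 18 others. Col14a1 and Col6a4 passed this filter through MD43 alone. Col4a5, Col4a6 and Col21a1 were not analysed here.

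The FNPs came from 4 embryos of the inbred strain FVB/NJ at E10.5, all with 29 somites. WT embryos (Smchd1 +/+, n = 2) were labelled 1 female and 1 male, and MD43 embryos (Smchd1 MommeD43/MommeD43, n = 2) were both male. MommeD43 is a missense allele of Smchd1 from a chemical mutagenesis screen, and the MD43 embryos came from the mouse line of that screen. The paper also remade the mutation by CRISPR in a line on another background, which was not used for these samples. SMCHD1 is a chromatin protein of gene silencing. WT replicate 2 and MD43 replicate 2 had the same mother. A further record kept by the study lists WT replicate 2 as a female, in which case sex and genotype cannot be told apart.

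The 2 libraries of a genotype were merged in the table, so no test over embryos was possible and no p-value was computed. Reads of a gene are given as the geometric mean of the 2 libraries of its genotype, recovered from the log2 RPKM value and the exon length. The implied depth was 16055882 reads per library in WT and 22328791 in MD43. Differences are log2 RPKM in MD43 minus log2 RPKM in WT, and the error beside them is the smallest standard error that counting allows (counting SE), without the variation between embryos. Smchd1 itself stood at 3.31 log2 RPKM in WT and 3.30 in MD43, a difference of -0.01 ± 0.02. As these are bulk samples, fewer cells of a type and less RNA per cell cannot be told apart.

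Collagens are secreted proteins of the extracellular matrix in which chains wind around each other into stiff helices. Fibrillar collagens form the banded fibrils of skin, bone and cartilage, collagen IV forms the sheet under epithelia and vessels, and FACIT collagens sit on the surface of fibrils. Chains are modified and folded inside the cell, exported, cut at their ends, cross-linked and later broken down, and most of these steps have enzymes of their own. At this stage the FNP consists mainly of neural crest mesenchyme covered by surface ectoderm, before facial cartilage and bone have formed. The dissected samples also held RNA of neural progenitor and young neuron markers, given below.

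A small set of chains held most of the summed collagen RPKM in both genotypes. RPKM divides by the length of all annotated exons, so the order of the chains depends on these lengths. The 5 highest chains made up 68.4% of the summed collagen RPKM in WT and 72.0% in MD43. In WT these were Col18a1 (5.27 log2 RPKM), the source of endostatin in basement membranes, Col2a1 (5.14), the main fibrillar chain of cartilage, Col4a1 (4.43), Col3a1 (4.17), a chain of soft tissue fibrils, and Col4a2 (4.04). The same chains led in MD43, with Col2a1 at 5.55, Col18a1 at 5.39, Col4a1 at 4.61, Col4a2 at 4.18 and Col3a1 at 3.69 log2 RPKM. Col2a1 and Col18a1 exchanged places at the top, and Col3a1 and Col4a2 lower down, and each of these gaps was larger than its counting error in both genotypes. Further down the order the ranks were less certain, since 18 of 33 neighbouring pairs in WT and 15 of 33 in MD43 did not differ beyond the 95% counting interval. Col1a1 and Col11a1 had the same level in WT to 2 decimals, 2.09 log2 RPKM, whereas in MD43 Col11a1 was at 2.15 and Col1a1 at 0.84.

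**Figure D1:**
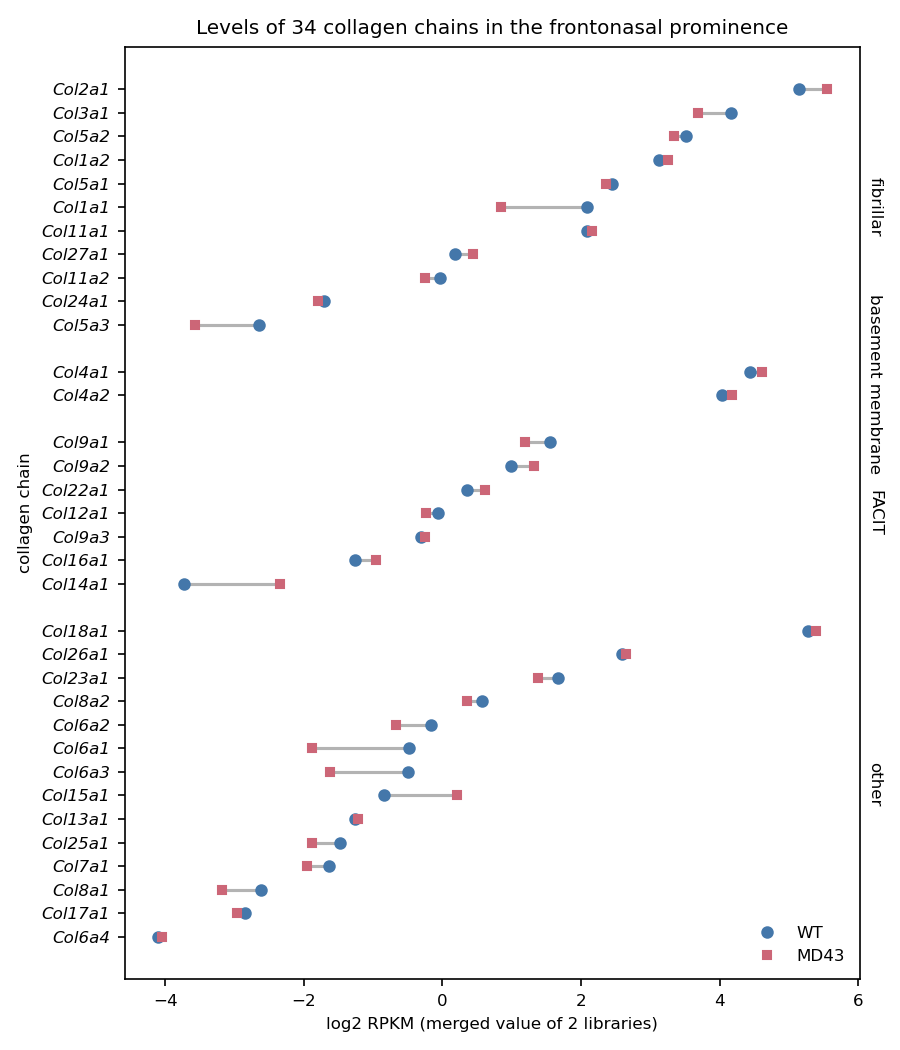
Log2 RPKM of the 34 compared collagen chains in WT (circles) and MD43 (squares), grouped by class and ordered by the WT level, with a line joining both values of a chain. Levels run from -4.11 for Col6a4 to 5.27 for Col18a1 in WT, and the longest lines belong to Col6a1, Col14a1, Col1a1, Col6a3 and Col15a1.

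Summed over the chains, collagen RNA was close in both genotypes, at 190 RPKM in WT and 200 RPKM in MD43. The median difference of the 34 chains was -0.09, against 0.01 for the 15377 genes with as many reads. A chain was counted as higher or lower in MD43 when it differed by at least 1.5-fold and the 95% counting interval of the difference left out 0. Under this rule 2 chains were higher (Col15a1 and Col14a1), where 3.17% of all genes were higher. The rule counted 4 as lower (Col1a1, Col6a1, Col6a3 and Col5a3), where 5.79% of all genes were lower. Col14a1 was compared through its reads in MD43 alone, where it is high. By this interval alone, called counting error from here on, 10 chains were higher and 10 were lower, where 26.2% of all genes were higher and 24.2% lower. The 6 chains past the 1.5-fold rule lay in 3 of the 4 classes. Of the collagen IV chains, which make up the basement membrane class here, only 2 were compared.

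**Figure D2:**
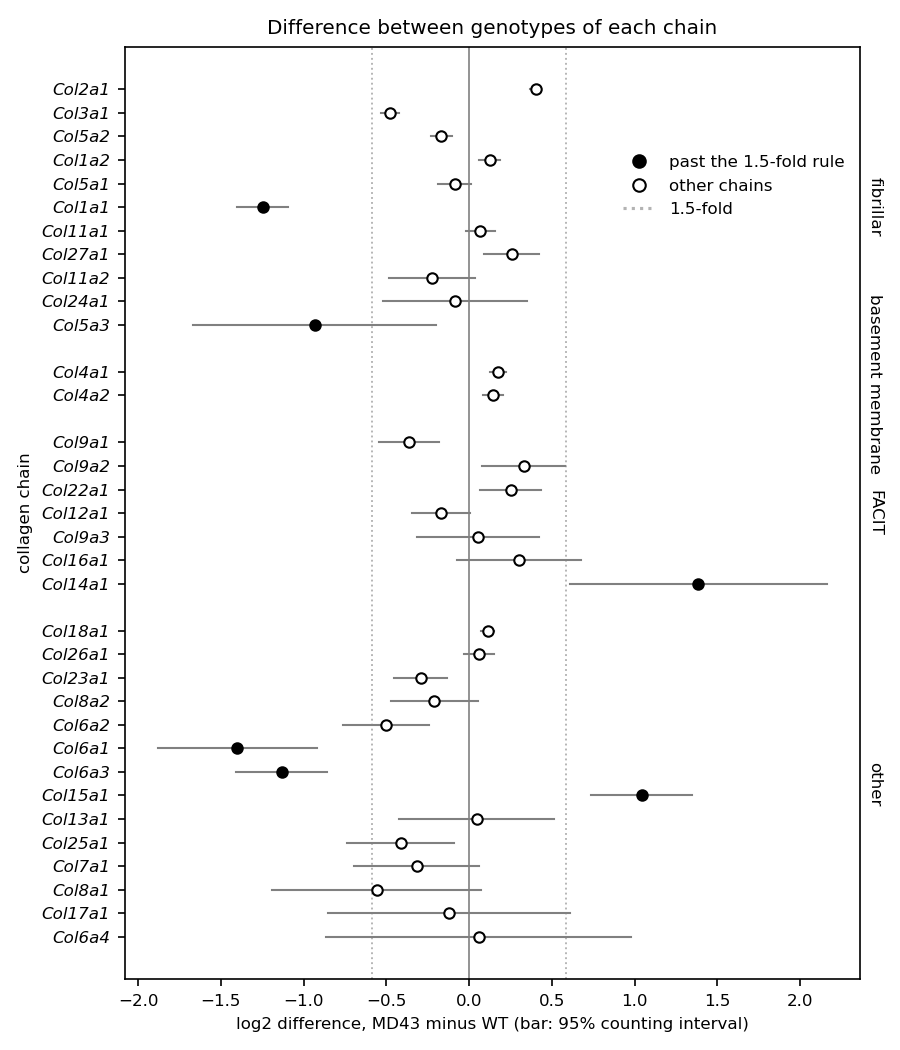
Log2 RPKM in MD43 minus log2 RPKM in WT for the 34 compared chains by class, with bars for the 95% counting interval and dotted lines at 1.5-fold. Filled points mark the 2 higher chains (Col15a1, Col14a1) and the 4 lower chains (Col1a1, Col6a1, Col6a3, Col5a3), and the interval of Col5a3 crosses the 1.5-fold line. Col14a1 had at least 10 reads in MD43 alone.

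Fibrillar chains had a median difference of -0.09, from -1.25 to 0.40, and their summed level was 90.0 RPKM in WT and 93.2 RPKM in MD43. Col1a1, the alpha 1 chain of collagen I (ENSMUSG00000001506, GRCm38 chromosome 11, 94936224 to 94953042, plus strand), was covered by 448 reads in WT and by 262 in MD43. It was at 2.09 log2 RPKM in WT and 0.84 in MD43, a difference of -1.25 ± 0.08. Its partner in collagen I, Col1a2, was at 3.13 in WT and 3.25 in MD43, a difference of 0.12 ± 0.03. The Col1a2 level was therefore 2.06-fold that of Col1a1 in WT and 5.33-fold in MD43, a difference in the log2 ratio of -1.37 ± 0.09. Both levels are per kilobase of all annotated exons, 6563 bases for Col1a1 and 12426 for Col1a2, which affects the ratio within a genotype and not its difference between genotypes.

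Among the other fibrillar chains, Col2a1 was higher in MD43 by 0.40 ± 0.02, with 5246 reads in WT and 9645 in MD43. Col3a1 had nearly equal reads, 2833 and 2825, which at the greater depth of MD43 was a difference of -0.48 ± 0.03. Both are short of 1.5-fold. Col5a2, which joins Col5a1 in the collagen V that starts collagen I fibrils, differed by -0.17 ± 0.03, and Col5a1 by -0.09 ± 0.05, within counting error of 0. Col5a2 is a neighbour of Col3a1, 24614 bases away on chromosome 1 and on the opposite strand, and the Col3a1 level relative to Col5a2 differed between genotypes by -0.31 ± 0.04. Col5a3, a rarer chain of collagen V, had 17.5 reads in WT and 12.7 in MD43, a difference of -0.93 ± 0.38. Col27a1, a cartilage fibril chain, was 0.26 ± 0.08 higher.

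Collagen XI chains form the core of cartilage fibrils together with a product of Col2a1. Col11a1 was at 2.09 log2 RPKM in WT and 2.15 in MD43, and Col11a2 at -0.03 and -0.25, and both differences (0.07 ± 0.04 and -0.22 ± 0.13) lay within counting error of 0. Since Col2a1 was higher and Col11a1 nearly level, the log2 ratio of Col11a1 to Col2a1 differed by -0.34 ± 0.05. Col24a1, a fibrillar chain of developing bone and eye, differed by -0.09 ± 0.22.

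Of the collagen IV chains, Col4a1 and Col4a2 were abundant and the others were nearly absent. Col4a1 had 2592 reads in WT and 4067 in MD43, a difference of 0.17 ± 0.03, and Col4a2 had 1750 and 2687 reads, a difference of 0.14 ± 0.03. Both were slightly higher by counting error and short of 1.5-fold. Products of the 2 genes assemble into 1 network molecule, and the log2 ratio of Col4a1 to Col4a2 was 0.39 in WT and 0.42 in MD43, a difference of 0.03 ± 0.04. The genes start head to head on chromosome 8, and their models overlap by 22 bases on opposite strands (Col4a1, 11198423 to 11312826, minus; Col4a2, 11312805 to 11449287, plus). Col4a3 and Col4a4, chains of the kidney and ear, form a similar head-to-head pair with a gap of 71 bases on chromosome 1. Col4a3 had 4.90 reads in WT against 1 in MD43, and Col4a4 had no read in 1 library and 2 reads in the other in WT, and 0 and 7 in MD43.
The promoter windows of Col4a1 and Col4a2 (RefSeq, GRCm38.p6, 250 bases before to 50 after the start of transcription, 5′ to 3′ on the strand of the gene) are shown because the start region is shared by both genes. They lie at chr8:11312777-11313076 on the minus strand and chr8:11312555-11312854 on the plus strand. Capitals mark CCAAT and GGGCGG, searched on both strands, so that the reverse complement of a motif is in capitals too.
Col4a1: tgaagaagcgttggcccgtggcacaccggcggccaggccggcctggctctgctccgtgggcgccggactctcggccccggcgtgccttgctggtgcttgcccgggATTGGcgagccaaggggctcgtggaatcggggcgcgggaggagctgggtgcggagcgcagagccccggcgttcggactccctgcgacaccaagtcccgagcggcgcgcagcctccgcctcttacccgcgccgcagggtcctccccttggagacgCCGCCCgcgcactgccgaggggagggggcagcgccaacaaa
Col4a2: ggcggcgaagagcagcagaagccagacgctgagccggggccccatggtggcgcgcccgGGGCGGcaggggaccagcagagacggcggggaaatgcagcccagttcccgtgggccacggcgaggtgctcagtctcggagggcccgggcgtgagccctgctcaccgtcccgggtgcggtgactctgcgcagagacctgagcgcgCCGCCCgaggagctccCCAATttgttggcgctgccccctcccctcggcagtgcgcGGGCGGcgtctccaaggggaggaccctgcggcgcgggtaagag
The Col4a1 window holds 1 CCAAT and 1 GGGCGG, and the Col4a2 window holds 1 and 3. Of all 32851 promoter windows of this length, 37.4% hold CCAAT, 35.7% GGGCGG and 13.6% TATAAA. Of 29 windows of 26 collagen genes, 12 hold CCAAT, 19 GGGCGG and 4 TATAAA. A match is a description of the letters.

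The FACIT chains had a median difference of 0.25, from -0.36 to 1.39, and a low summed level of 8.46 RPKM in WT and 8.70 RPKM in MD43. The 3 chains of collagen IX, which coats cartilage fibrils, did not differ in 1 direction. Col9a1 was at 1.56 log2 RPKM in WT and 1.19 in MD43, a difference of -0.36 ± 0.09, whereas Col9a2 was higher by 0.33 ± 0.13 and Col9a3 differed by 0.05 ± 0.19. The log2 ratio of Col9a1 to Col9a2 was 0.57 in WT and -0.12 in MD43, a difference of -0.69 ± 0.16. Col14a1, a chain on the fibrils of skin and tendon, had 8.49 reads in WT and 30.8 in MD43, the largest positive difference of the family at 1.39 ± 0.40. It entered the comparison and the FACIT median through MD43 alone, where it is high. Col22a1, known from tissue junctions such as that of muscle and tendon, was 0.25 ± 0.09 higher. Col16a1 (0.30 ± 0.19) and Col12a1 (-0.17 ± 0.09) lay within counting error of 0.

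Collagen VI, which forms beaded filaments around cells, was lower in MD43 in its 3 main chains. Their summed level was 2.32 RPKM in WT and 1.23 RPKM in MD43. Col6a1 (chromosome 10, 76708792 to 76726168, minus strand) was at -0.48 log2 RPKM in WT and -1.88 in MD43, from 50.3 and 26.5 reads, a difference of -1.40 ± 0.24. Col6a3 (chromosome 1, 90765923 to 90843971, minus strand) was at -0.49 and -1.63, from 136 and 86.5 reads, a difference of -1.13 ± 0.14. Col6a2, 85161 bases from Col6a1 on the same strand, differed less, by -0.50 ± 0.13 with 120 reads in WT and 117 in MD43, and did not reach 1.5-fold. The log2 ratio of Col6a1 to Col6a2 differed between genotypes by -0.90 ± 0.28 and that of Col6a3 to Col6a2 by -0.63 ± 0.19, whereas that of Col6a1 to Col6a3 (-0.27 ± 0.28) was within counting error of 0. Of the other collagen VI chains, Col6a4 had 7.94 reads in WT and 11.5 reads in MD43, Col6a6 had at most 4 reads in a library, and Col6a5 had no read in any of the 4 libraries.
The RefSeq promoter windows of Col6a1 (chr10:76725995-76726294) and Col6a3 (chr1:90843922-90844221), both on the minus strand of GRCm38.p6, are given for comparison with those of collagen IV. Neither holds any of these motifs on either strand, so no letter is in capitals. Col6a2, the remaining main chain, has 2 windows, with 3 and 1 matches of GGGCGG.
Col6a1: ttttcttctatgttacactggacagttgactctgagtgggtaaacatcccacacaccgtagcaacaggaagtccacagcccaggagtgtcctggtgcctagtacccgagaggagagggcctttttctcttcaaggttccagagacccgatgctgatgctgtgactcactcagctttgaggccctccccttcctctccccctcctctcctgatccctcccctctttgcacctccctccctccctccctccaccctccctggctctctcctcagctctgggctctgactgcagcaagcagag
Col6a3: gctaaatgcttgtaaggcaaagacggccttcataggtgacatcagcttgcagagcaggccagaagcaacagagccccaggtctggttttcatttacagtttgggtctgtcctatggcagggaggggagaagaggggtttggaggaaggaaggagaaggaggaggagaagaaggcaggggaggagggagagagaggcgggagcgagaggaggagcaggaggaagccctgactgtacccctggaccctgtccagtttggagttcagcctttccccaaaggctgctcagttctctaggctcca
Their GC content was 57.3% and 56.3%, against 74.0% for Col4a1 and 73.7% for Col4a2. The 2 Col6a2 windows had 64.3% and 56.7%. The window of Col15a1, which was higher in MD43, also held none of these motifs and had a GC content of 52.3%. Whether the letters go with the differences was not tested.

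The remaining chains are of several kinds, and with collagen VI they had a median difference of -0.25, from -1.40 to 1.04. Of the multiplexins, basement membrane collagens with sugar chains, Col18a1 was 0.11 ± 0.02 higher and Col15a1 was 1.04 ± 0.16 higher. Col15a1 (chromosome 4, 47208161 to 47313167, plus strand) was covered by 57.0 reads in WT against 163 in MD43. The 4 transmembrane chains had a median difference of -0.21. Col23a1 differed by -0.29 ± 0.08 and Col25a1, which is needed for motor nerves to enter muscle, by -0.41 ± 0.16, whereas Col13a1 (0.05 ± 0.24) and Col17a1 (-0.12 ± 0.37), a chain of the hemidesmosomes of skin, lay within counting error of 0. The same held for Col7a1, the anchoring fibril of skin, at -0.32 ± 0.19, for Col8a1 and Col8a2, short chains of the eye and vessels, at -0.56 ± 0.32 and -0.21 ± 0.13, and for Col26a1 at 0.06 ± 0.05.

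Below the filter were 8 chains. Col10a1, the marker of hypertrophic cartilage, had no read in either WT library and 1 read in a single MD43 library. Col20a1 had 9.17 reads in WT and 6 in MD43. Col19a1, which lies 9205 bases from Col9a1, had 2.45 and 0.95 reads, where a library without reads counts as 0.9. Col28a1 had 0 and 2 reads in the WT libraries and 0 and 5 in those of MD43. In all, 6 of the 8 had at most 3 reads in both genotypes, and at this depth no difference between the genotypes could be read from them.

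Although the table merges the libraries, the product of the reads of both libraries comes out as a whole number up to about 300000. A whole number splits into a limited number of pairs. For some chains several pairs lay within 4-fold, with 7 for Col1a1 and for Col9a2 in MD43, 6 for Col11a2 in WT and 4 for Col6a3 in MD43. The most even pair sets a lower limit on the ratio of reads between the 2 libraries of a genotype. Which embryo holds which count is not known. As the libraries differ in depth, this pair sets no such limit on the ratio of levels between the 2 embryos. Shares of all genes that reached a ratio are over the genes with products from 1000 to 300000 in the same genotype. Over all genes with a product of at least 10000 and a single pair within 4-fold, the ratio had a median of 1.44 in WT (1305 genes) and 1.52 in MD43 (1166 genes), which includes the unequal depth of the libraries. Reads of single libraries are also given as RPM, which is RPKM without the length term. They are set against the depth of the genotype and not of the library.

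Among the chains whose reads could be split, Col15a1 in MD43 had the highest lower limit on the ratio. Its most even split was 73 and 365 reads, a ratio of at least 5 that 0.10% of all genes in MD43 reached. This is 3.27 and 16.3 RPM, whereas the most even split in WT was 57 and 57 reads, 3.55 RPM in each, and the next pair was 19 and 171. On this scale the lower MD43 library, with at most 73 reads, was no higher than the even WT value. The scale gives both libraries of a genotype the same depth, and the true WT pair is not known. Whether the higher level of the genotype rested on the other MD43 library is therefore not settled. Dividing by the median ratio of the MD43 libraries left a ratio of 3.30.

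Col1a1 was uneven in the other genotype. In WT its most even split was 279 and 719 reads, or 17.4 and 44.8 RPM, a ratio of 2.58 that 1.73% of all genes in WT reached, and the next pair was 93 and 2157. In MD43 it could be split evenly, into 255 and 270 reads, or 11.4 and 12.1 RPM. With these pairs both WT values lie above both MD43 values, whereas the next WT pair has a lower value of 5.79 RPM, and the size of the difference depends on the WT library that is compared.

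Of the collagen VI chains, Col6a1 and Col6a3 could be split evenly in both genotypes and Col6a2 in MD43 alone. Col6a3 had 130 and 143 reads in WT (8.10 and 8.91 RPM) and 85 and 88 in MD43 (3.81 and 3.94 RPM) in its most even pairs. Col6a1 had 46 and 55 reads in WT (2.86 and 3.43 RPM) and 26 and 27 in MD43 (1.16 and 1.21 RPM). Col6a2 had 93 and 154 reads in WT (5.79 and 9.59 RPM) and 111 and 124 in MD43 (4.97 and 5.55 RPM), and its WT ratio of 1.66 was reached by 19.3% of all genes. On the RPM scale used here, which leaves out the unequal depth of the libraries, the most even pair makes the spread of a genotype smallest. It so favours genotypes that do not overlap. At the depth of each library another pair can be the more even. The next pair of Col6a3 in MD43, 68 and 110 reads, has a ratio of 1.62, near the median library ratio of 1.52. Of the 19 chains with products from 700 to 300000 in both genotypes, the most even pairs did not overlap for 5 lower in MD43 (Col1a1, Col6a1, Col6a2, Col6a3 and Col11a2), where this held for 15% of all genes with such products, and for 1 higher (Col9a2), where it held for 7.33%. The next pair of Col6a2 in WT, 77 and 186 reads, has a lower value of 4.80 RPM, below both of its most even MD43 values, and the true pairs are not known.

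Other uneven chains were Col9a1 and Col23a1. Col9a1 had at best 133 and 503 reads in MD43, a ratio of 3.78, against 205 and 279 in WT, so that its MD43 values lie on both sides of the WT values. Col23a1 had 199 and 431 reads in WT (2.17) and 179 and 619 in MD43 (3.46), the only pairs apart from a library with 1 read. Dividing by the median ratio of the MD43 libraries left 2.49 for Col9a1 and 2.28 for Col23a1, which is more than the 1.29-fold and 1.22-fold differences of these chains between genotypes. Of the 18 chains with products from 1000 to 300000, the ratio was at least 2 for 3 chains in WT and 6 in MD43, where 5.71% and 3.55% of all genes reached it. It was at least 3 for none in WT and 3 in MD43, where 0.887% and 0.529% of all genes reached it.

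**Figure D3:**
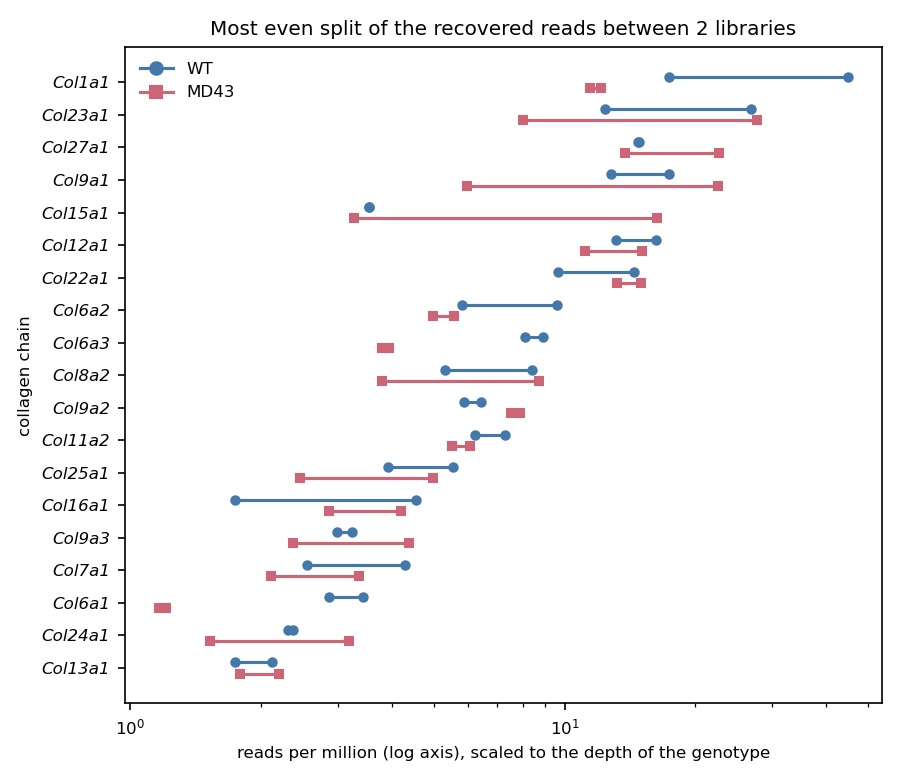
RPM (log axis) of the 2 libraries of WT (circles) and MD43 (squares) for 19 chains, as the most even whole-number split of the recovered product. A line joins each pair, and its length is the smallest spread of reads possible, without the unequal depth of the libraries. Col15a1 in MD43 has the longest line, from 3.27 to 16.3, and the pairs of Col1a1, Col6a1, Col6a2, Col6a3, Col11a2 and Col9a2 do not overlap between genotypes in this most even split, the first 5 lower in MD43 and the last higher.

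Genes that act on collagen were taken from lists of 54 genes, of which 47 had at least 10 reads in a genotype. Their median difference was -0.10, against 0.01 for all genes. By the 1.5-fold rule 3 were higher and 6 lower, where 3.17% and 5.79% of all genes were. By counting error alone 9 were higher and 21 lower, where 26.2% and 24.2% of all genes were. Tll1 and Ctsk, which make up 2 of the 3 higher genes, passed the filter of 10 reads through MD43 alone, where they are high.

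Modification and folding inside the cell had 18 genes with a median of -0.14, 10 lower and 1 higher by counting error, where 24.2% and 26.2% of all genes were. All 3 that were lower by 1.5-fold were hydroxylases. P4ha1 and P4ha2, catalytic subunits of the prolyl 4-hydroxylase that stabilises the helix, differed by -0.80 ± 0.04 and -0.82 ± 0.09. P4ha1 had 1571 reads in WT and 1258 in MD43. Plod2, the lysyl hydroxylase of the telopeptides, which sets the type of cross-link, differed by -0.78 ± 0.04. The abundant chaperones and partners differed by less, with Serpinh1 (the collagen chaperone HSP47) at -0.05 ± 0.02, P4hb at -0.14 ± 0.01 and Ppib at -0.10 ± 0.02. Fkbp10, a prolyl isomerase of procollagen folding, was 0.34 ± 0.07 higher.

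Among the genes that export, cut and cross-link procollagen, the most negative differences were in cross-linking. The 11 genes that cut and cross-link had a median of 0.02. By counting error 3 of them were higher and 3 lower, where 26.2% and 24.2% of all genes were. Lox, a lysyl oxidase, had 70.9 reads in WT and 36.4 in MD43, a difference of -1.44 ± 0.21. Its relative Loxl2 had 1275 and 890 reads, a difference of -0.99 ± 0.04, whereas Loxl1 (0.32 ± 0.17) and Loxl3 (0.06 ± 0.06) lay within counting error of 0. Bmp1, the main protease of the C-terminal propeptide, was level (-0.03 ± 0.05). Its relatives parted, with Tll2 at -0.73 ± 0.16 and Tll1 at 1.84 ± 0.55. The Tll1 product in WT, 17, allows only 1 and 17 reads, or 0.06 and 1.06 RPM, which lie below and above the most even MD43 pair of 20 and 21 reads (0.90 and 0.94 RPM). Pcolce2, an enhancer of that cleavage, was 0.92 ± 0.16 higher. The 5 export genes had a median of -0.16 with none past 1.5-fold, where 3.17% of all genes were higher and 5.79% lower. Sec24d, a coat protein of procollagen carriers, differed by -0.38 ± 0.09.

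Genes of breakdown had a median of 0.22 over 6 genes, Ctsk included. Mmp14 (0.28 ± 0.04) and Mmp2 (0.20 ± 0.06), proteases that act on collagen and gelatin, were slightly higher. Timp2 was higher by 0.25 ± 0.06 and Timp3 lower, at -0.35 ± 0.07, both inhibitors of these proteases. Ctsk, a collagen-cutting cathepsin, had 4.47 reads in WT and 19.6 in MD43 (1.66 ± 0.53). The 7 collagen receptors had a median of 0.03 with none past 1.5-fold, where 3.17% of all genes were higher and 5.79% lower. The integrin chain Itga1 (-0.53 ± 0.15) and the receptor kinases Ddr2 (-0.36 ± 0.06) and Ddr1 (-0.20 ± 0.03) were lower by counting error, where 24.2% of all genes were. Itgb1 differed by 0.04 ± 0.02.

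**Figure D4:**
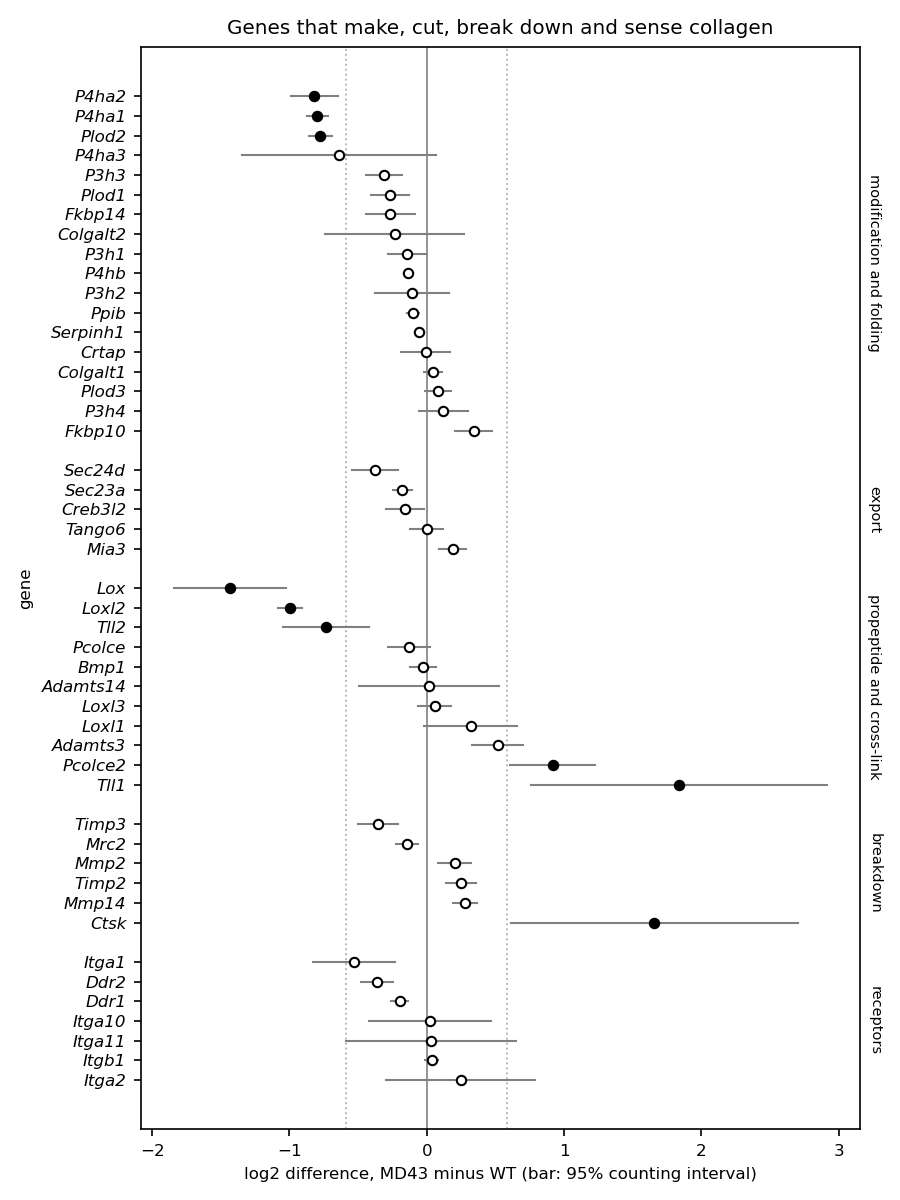
Log2 RPKM in MD43 minus log2 RPKM in WT for 47 genes that make, export, cut, cross-link, break down or bind collagen, with bars for the 95% counting interval and dotted lines at 1.5-fold. Filled points passed the 1.5-fold rule, 6 of them lower (P4ha1, P4ha2, Plod2, Lox, Loxl2, Tll2) and 3 higher (Tll1, Pcolce2, Ctsk), of which Tll1 and Ctsk had at least 10 reads in MD43 alone.

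Markers of some of the tissues that could be in the dissected FNP differed as well. Of all genes, 26.2% were higher and 24.2% lower by counting error, and 3.17% and 5.79% by the 1.5-fold rule. All 8 markers of surface ectoderm were higher in MD43 (median 0.65, summed level 120 RPKM in WT and 188 RPKM in MD43), as were all 6 of red blood cells (median 0.86, 3057 and 5811 RPKM). Facial mesenchyme had 2 markers higher and 6 lower (median -0.22, 141 and 137 RPKM). Neural progenitors had 1 marker higher and 4 lower of 6 by counting error (median -0.18, 265 and 234 RPKM), and Fabp7 was lower by the 1.5-fold rule (-0.89 ± 0.05). Endothelium (6 markers, median -0.08, 14.0 and 13.1 RPKM) and young neurons (5 markers, -0.05, 97.5 and 97.0 RPKM) had 1 marker lower each by counting error, where 24.2% of all genes were lower. Of cartilage markers, Sox9, Sox5 and Sox6 were measured (median 0.04), while Acan, Matn1 and Cnmd had at most 5.29 reads although Col2a1 was among the highest chains. Of osteoblast markers, Runx2 had 13.9 reads in WT against 7.94 in MD43, Sp7 had 5.48 and 12.0, and Bglap and Ibsp had at most 3.55. No skeletal muscle marker reached 10 reads. The part of these tissues in the collagen differences was not tested.

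Reads of overlapping genes on opposite strands can be mixed if the counting did not use strand, which is not stated. Among genes with at least 10 reads, Col18a1 overlaps Slc19a1 by 8825 bases, Col9a3 overlaps Tcfl5 by 234, and Col5a1 overlaps 2810430I11Rik and Gm13372, apart from the Col4a1 and Col4a2 pair. None of these chains was past the 1.5-fold rule.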

How the data were processed

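The authors dissected the FNP along its boundary with the maxillary prominence, made stranded mRNA libraries from 100 ng of total RNA, trimmed reads with Trim Galore 0.4.4, mapped them with HISAT2 2.0.5 to GRCm38.p6 and quantified them in SeqMonk. The deposited table holds log2 RPKM values, which the authors scaled for library size and transcript length and merged over the 2 libraries of a genotype. Its columns of the authors' own comparison (FDR, log2 fold change and mean of both genotypes) were not used.

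All 42 chains were joined to GENCODE M21 (GRCm38), as were 33101 of 33708 rows. Genes without reads in any library shared 1 constant of log2 RPKM plus log2 exon length, where 0.9 reads stand for a library with none. Each value relative to this constant gave the product of the reads of both libraries. Of the products from 1000 to 300000, 99.3% in WT and 99.6% in MD43 were within 0.1 of a whole number. The counting SE was computed from the square roots of the products and is a lower limit. The 95% counting intervals cover counting error alone. On libraries simulated with known counts for the genes of this table, 100% of 9510 MD43 and 10052 WT products from 10 to 300000 were recovered exactly. The merged values allow no pairing of embryos by mother, and no test was run.

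Every chain was named, with class, partner, pathway and marker lists. These members and lists, and the filter of 10 reads and the 1.5-fold rule, were chosen with earlier results of these data known. The splits into whole-number pairs were added after the values were seen. Alternatives were pseudocounts of 0.1 and 1 RPKM, other filters, centring, a correction for GC content and exon length, and a 2-fold minimum. Promoters were RefSeq windows of 300 bases. Python 3.11.15, numpy 2.4.6, pandas 2.3.3 and matplotlib 3.10.9 were used.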

Additional observations from a re-analysis of the deposited data

How the results depend on the processing

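Of 48 alternative values of the class medians and counts, 40 stayed within the limit set for them and 8 moved. The median of all chains changed sign, from -0.09 to 0.0661, over the 17 chains whose log2 RPKM averaged 0 or more, and no other median did. The FACIT median was 0.0528 without a filter on reads, against 0.25. The median of the other chains was -0.0688 with a pseudocount of 1 RPKM and -0.076 over chains whose log2 RPKM averaged 0 or more, against -0.25. The count of higher chains, 2, was 0 with a pseudocount of 1 RPKM, 1 with a minimum of 50 reads and 0 with a log2 RPKM that averaged 0 or more. The count of lower chains, 4, was 1 with a pseudocount of 1 RPKM and 1 with a log2 RPKM that averaged 0 or more. The pseudocount pulls low values together and the filters remove chains. Of 136 alternative values of single chains, 7 left the counting interval, all with a pseudocount of 1 RPKM, and none changed sign. They belong to Col6a2 and to every chain past the 1.5-fold rule (Col1a1, Col6a1, Col6a3, Col5a3, Col15a1 and Col14a1). No paired analysis was possible because the libraries of a genotype were merged in the table, and fits without each replicate and with a replicate block were not run. The libraries of a genotype cannot be told apart, so a difference that rests on 1 embryo shows as such only where its reads split unevenly.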
